A study of Drosophila melanogaster with 4 samples.

Results

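The NK homeobox cluster of Drosophila is a run of genes for NK-class homeodomain transcription factors on chromosome arm 3R. The genes tin, bap, lbl, lbe, C15 and slou were taken by name, with the span from 21350000 to 21600000 of 3R (dm6) around them, and make 6 of the 11749 protein-coding genes of the autosomes. Their place in the TADs, borders and chromatin loops of BG3 and Kc167 cells was read from in situ Hi-C, which cuts fixed chromatin with DpnII inside the nucleus, joins neighbouring ends and sequences them as pairs that count contacts. BG3 cells derive from the central nervous system of male larvae, and Kc167 cells from female embryos. The labels name no treatment for either line. Per the methods of the study, BG3 cells were grown with serum, insulin and antibiotics, and the culture of Kc167 cells is not described. Each line had 2 replicates that were merged into 1 map before any list was made. No spread between replicates is therefore known, no test between the lines was possible, and the values below are set side by side. The BG3 map rests on fewer read pairs than the Kc167 map. Neither line is a muscle or heart line, and RNA was not analysed here, so that whether the 6 genes are transcribed in these cells is not known from these lists.

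NK homeobox genes are an old family that stands clustered in flies and is known for its part in building the mesoderm. tin (tinman) is needed for the heart and the visceral muscles, bap (bagpipe) acts under tin in the visceral mesoderm, and lbl and lbe (the ladybird pair) and slou (slouch) give identity to single heart cells and body wall muscles. C15 is the fly homologue of the vertebrate Tlx genes and is best known from the tip of the leg. A TAD is a stretch of chromosome whose parts touch each other more than they touch the neighbouring stretches, and its ends are its borders. Genes and enhancers within a TAD share that neighbourhood.

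On 3R, tin (FBgn0004110) runs rightward from 21378977 to 21381970 and bap (FBgn0004862) rightward from 21388880 to 21390449. lbl (FBgn0008651) runs leftward between 21409979 and 21434133, and lbe (FBgn0011278) leftward between 21441577 and 21446537. C15 (FBgn0004863) runs rightward from 21499986 to 21512814, and slou (FBgn0002941) runs leftward between 21548661 and 21557182. Their 5′ ends thus lay at 0, 9.90, 55.2, 67.6, 121 and 178 kb from that of tin. Genes of other families are spread between them, among them Fancm, a DNA repair helicase, and CheB93a and CheB93b of a chemosensory family. mod(mdg4), which encodes many isoforms of an insulator-associated protein, lies on the left of the cluster, and InR, the insulin receptor gene, on its right.

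The cluster was split over 3 stringent TADs in the same way in both maps, with tin, bap, lbl and lbe together in the first, C15 in the second and slou in the third. tin alone had its 5′ end at a border. bap and C15 lay in loop anchors of both maps, at the same pixels. The C15 calls were spread over several kb, and the BG3 one was lost at a stricter q-value limit. A loop anchor within 1 kb of the slou 5′ end and anchors near lbl and lbe were called in Kc167 alone. The slou distance is below what that call resolves. Kc167 further had a loop from the far side of slou to a site 19.5 Mb away.

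Sequences at some borders and promoters of the span are shown first, from the RefSeq genome of Release 6 (dm6). They are 300 bases centred on the 2 borders that enclose the tin, bap, lbl and lbe TAD of the stringent lists. Shown too are the 300 bases before the 5′ ends of tin, bap, lbl, C15 and slou. The 5′ ends of bap and C15 lay in loop anchors, and that of slou within 1 kb of one in Kc167 alone. That of lbl lay at neither a border nor an anchor. The window before lbe was searched as well and is not shown. Capitals mark 5 short motifs searched on both strands: GAGAG (bound by GAF), GCCAT (core of the Pho site), CGATA (core of the BEAF-32 site), AGGNGGC (part of the CTCF site) and GGTCACACT (bound by M1BP). Matches of one motif may overlap and are then counted apart.
border between mod(mdg4) and tin, chr3R:21377864-21378163, forward strand: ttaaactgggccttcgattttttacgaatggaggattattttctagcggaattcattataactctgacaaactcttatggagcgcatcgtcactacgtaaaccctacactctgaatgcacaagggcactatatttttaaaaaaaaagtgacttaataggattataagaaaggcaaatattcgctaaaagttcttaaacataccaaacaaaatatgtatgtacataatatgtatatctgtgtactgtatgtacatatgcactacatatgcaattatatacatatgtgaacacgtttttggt
border between Fancm and C15, chr3R:21487763-21488062, forward strand: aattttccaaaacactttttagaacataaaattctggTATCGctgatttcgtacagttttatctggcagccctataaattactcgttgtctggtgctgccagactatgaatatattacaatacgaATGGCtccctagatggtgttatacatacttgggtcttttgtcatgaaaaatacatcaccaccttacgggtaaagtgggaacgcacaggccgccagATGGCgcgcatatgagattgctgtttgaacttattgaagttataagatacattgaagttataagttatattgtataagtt
before tin, chr3R:21378677-21378976, forward strand: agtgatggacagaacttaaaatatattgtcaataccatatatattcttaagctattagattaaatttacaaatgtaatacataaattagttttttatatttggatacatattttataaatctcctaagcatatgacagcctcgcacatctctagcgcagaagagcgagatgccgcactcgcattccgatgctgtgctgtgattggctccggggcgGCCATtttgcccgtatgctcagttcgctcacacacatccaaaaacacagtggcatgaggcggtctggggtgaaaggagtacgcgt
before bap, chr3R:21388580-21388879, forward strand: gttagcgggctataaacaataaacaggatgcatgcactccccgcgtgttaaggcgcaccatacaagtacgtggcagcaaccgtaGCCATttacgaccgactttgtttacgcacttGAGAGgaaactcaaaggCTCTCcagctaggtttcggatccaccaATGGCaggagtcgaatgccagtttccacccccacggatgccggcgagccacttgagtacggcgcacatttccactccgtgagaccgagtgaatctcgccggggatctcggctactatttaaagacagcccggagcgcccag
before lbl, chr3R:21434134-21434433, reverse strand: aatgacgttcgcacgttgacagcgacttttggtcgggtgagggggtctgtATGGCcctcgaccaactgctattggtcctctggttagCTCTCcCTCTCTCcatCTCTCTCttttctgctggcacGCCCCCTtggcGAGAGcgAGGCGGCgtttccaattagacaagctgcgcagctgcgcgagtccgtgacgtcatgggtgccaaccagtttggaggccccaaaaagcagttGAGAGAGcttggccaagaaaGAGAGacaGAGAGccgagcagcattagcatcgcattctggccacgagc
before C15, chr3R:21499686-21499985, forward strand: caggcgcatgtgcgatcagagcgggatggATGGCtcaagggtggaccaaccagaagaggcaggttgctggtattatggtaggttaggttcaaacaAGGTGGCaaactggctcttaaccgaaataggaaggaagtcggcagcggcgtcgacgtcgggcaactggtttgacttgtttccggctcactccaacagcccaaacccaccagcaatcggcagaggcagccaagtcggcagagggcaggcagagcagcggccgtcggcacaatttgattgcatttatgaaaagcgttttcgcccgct
before slou, chr3R:21557183-21557482, reverse strand: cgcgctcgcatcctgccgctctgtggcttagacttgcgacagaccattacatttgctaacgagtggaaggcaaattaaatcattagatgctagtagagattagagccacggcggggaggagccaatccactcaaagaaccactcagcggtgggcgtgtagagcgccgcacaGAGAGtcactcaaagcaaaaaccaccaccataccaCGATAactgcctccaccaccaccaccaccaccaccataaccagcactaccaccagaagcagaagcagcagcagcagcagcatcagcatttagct

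The window at the border before tin held none of the 5 motifs, with a GC content of 32%. It covers only the middle of a DpnII fragment of 2440 bp, and the border may lie anywhere in that fragment. The same fragment holds the window before tin, which had a GCCAT match. The border between Fancm and C15 likewise has a fragment of 1090 bp. Windows at all 1909 autosomal BG3 borders held GAGAG in 27.8%, GCCAT in 43.6%, CGATA in 35.6%, AGGNGGC in 10.9% and GGTCACACT in 2.41% of cases. The window at the border between Fancm and C15 held GCCAT 2 times and CGATA 1 time. Before the genes, GAGAG matched 2 times at bap, 10 times at lbl, 1 time at lbe and 1 time at slou, against 29.3% of the windows before all 11749 genes with at least 1 match. At least 10 matches, as before lbl, were found in 0.792% of those windows. AGGNGGC matched 2 times before each of the ladybird genes and 1 time before C15, and 8.3% of all windows had a match and 0.46% had at least 2. GCCAT matched before tin, bap, lbl, lbe and C15, at 1, 2, 1, 2 and 1 places, and CGATA before slou at 1, while 40.4% and 45.3% of all windows held these motifs. A match is a run of letters and no evidence of a bound factor.

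The plot of the span shows the genes, the TADs of both settings and the loops.

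**Figure D1:**
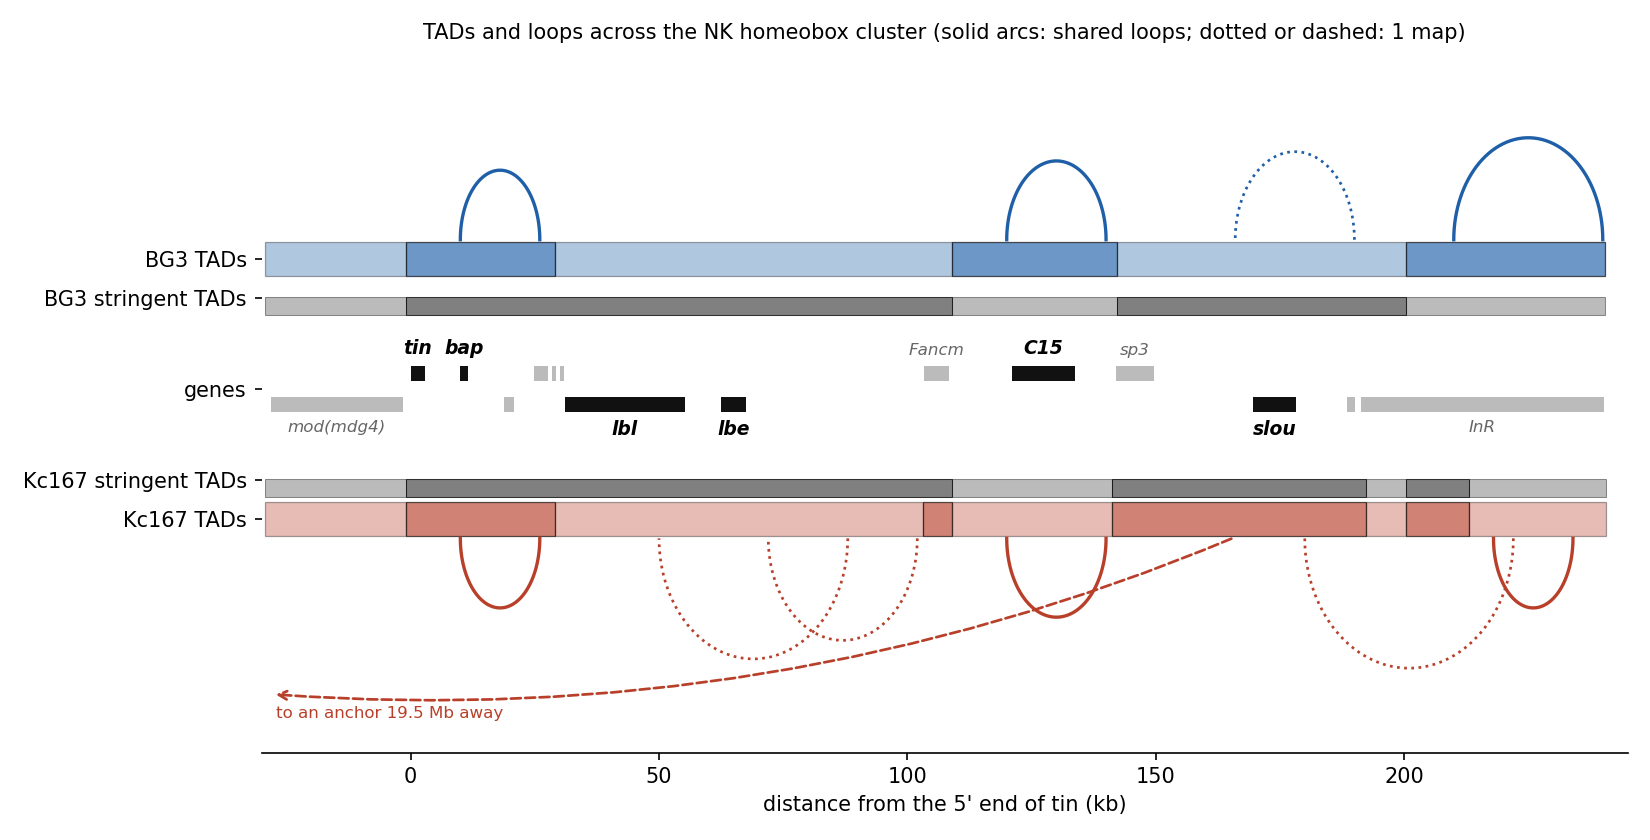
The NK homeobox cluster in BG3 (upper) and Kc167 (lower), with distance from the 5′ end of tin in kb on the horizontal axis, boxes for TADs of the permissive (coloured) and stringent (grey) lists and arcs for loops. Black boxes are the 6 NK genes and grey boxes the other protein-coding genes. tin, bap, lbl and lbe share a stringent TAD of 109.9 kb in both maps, solid arcs at bap and C15 stand in both maps, and the dashed Kc167 arrow leads to a site 19.5 Mb away.

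The authors made a permissive and a stringent list of TADs. A border of the permissive list that was also an end of a stringent TAD is called strong here. A border is called conserved where the other map had one within 20 bp, fuzzy where it had one within 2 kb and specific otherwise. The span held 5 borders in BG3 and 8 in Kc167. Of these, 4 were conserved and 1 was fuzzy in each map, and the other 3 in Kc167 were specific, while BG3 had no specific border. Over the autosomes, 28.9% of BG3 borders were conserved, 24.8% fuzzy and 46.3% specific, and 26.6%, 22.8% and 50.6% of Kc167 borders. Strong borders numbered 4 of 5 in BG3 and 6 of 8 in Kc167, against 45.2% and 52% of all autosomal borders. The 4 conserved ones had the same status in both maps, with 3 strong and 1 weak, and 13.1% of all BG3 borders were conserved and strong in both. Among 439 autosomal windows of 250 kb, the median was 4 borders in BG3 and 5 in Kc167, and 48.1% of windows had at least 5 in BG3 while 5.47% had at least 8 in Kc167. As many strong borders as here were found in 15.5% of windows in BG3 and 3.19% in Kc167. At least 4 conserved borders were found in 4.56% of the windows.

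The left border of the cluster, at 21378013, was at the identical base in both maps and strong in both. It fell between the start of mod(mdg4), 612 bp to the left and running leftward, and the start of tin, 964 bp to the right and running rightward. Its TAD separation score was -0.36 in BG3 and -0.46 in Kc167, and only 2.0% of autosomal borders in BG3 and 1.16% in Kc167 scored lower. In HiCExplorer a lower score means fewer contacts across the border. The scores of the 2 maps have their own scales and were compared within a map alone. The called position is the middle of a DpnII fragment of 2440 bp, from 21376792 to 21379231, which also holds the 5′ end of tin. Border fragments had a median of 693 bp in BG3 and 665 bp in Kc167. The distance of 964 bp is therefore below what this digest resolves at that place.

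The other conserved borders scored nearer to the middle of their maps or above it. The border at 21408049 lay in the coding sequence of CheB93a, between the TAD of tin and bap and that of the ladybird genes. It was weak in both maps, with scores of 0.17 in BG3 and 0.21 in Kc167. The border at 21487912 lay between genes, 5587 bp from the 5′ end of Fancm and 12074 bp from that of C15, and was strong in both maps. It scored -0.19 in BG3, with 15.1% of borders lower, and 0.01 in Kc167, with 55.8% lower. The border at 21579370, in a coding exon of InR, was strong in both maps and scored 0.10 in BG3 and 0.40 in Kc167, where 91.7% of borders were lower.

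Between C15 and slou the maps differed by 918 bp. BG3 had a strong border at 21521187 in an intron of sp3, 259 bp from the 5′ end of this gene, with a score of -0.08, and Kc167 had a strong border at 21520269, 659 bp before that 5′ end, with a score of 0.16. By the called positions sp3 started in the TAD of C15 in BG3 and in that of slou in Kc167. The fragments that hold these borders were 1008 and 828 bp long, so that the shift is of the size of a fragment. The BG3 fragment, from 21520682 to 21521689, also holds the 5′ end of sp3. Whether sp3 changed its TAD between the maps is therefore not resolved.

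Of the 3 borders specific to Kc167, 1 lay beside the ladybird genes and 2 were called in InR. The part of the lower depth of the BG3 map in these was not tested. The border at 21482084, 241 bp before Fancm, was weak, scored 0.07 and lay 5828 bp from the nearest BG3 border. The border at 21571379 in the 3′ UTR of InR was strong, lay 7991 bp from a BG3 border and had the highest score of the span, 0.48, above 94.7% of Kc167 borders. The border at 21592071 in the 5′ UTR of InR was strong, scored 0.34 and lay 12701 bp from a BG3 border. The fragments of the 2 InR borders were 4196 and 3410 bp long, whereas 6.59% of Kc167 border fragments were over 2 kb. The fragment of the border at 21571379, from 21569280 to 21573475, reaches past the 3′ end of InR. Whether this border lies in the gene is therefore not resolved. The median score of the span was -0.08 in BG3, where the median of all autosomal borders was -0.0003, and 0.19 in Kc167, where that median was -0.02.

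**Figure D2:**
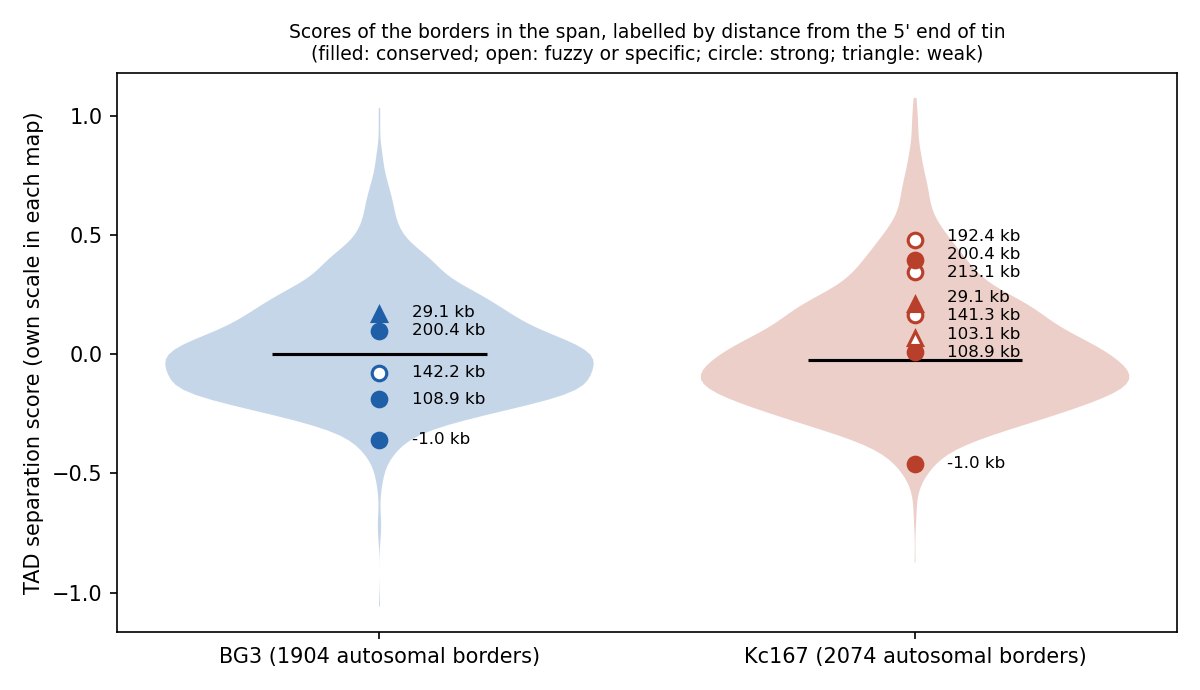
TAD separation scores of the borders in the span (points, labelled by distance from the 5′ end of tin in kb) over those of all autosomal borders (shaded outlines, with a line at the median) in each map. Filled points are conserved borders, and triangles are weak ones. The border before tin, at -1.0 kb, has the lowest score of the span in both maps, -0.36 and -0.46. In Kc167 the 3 borders called in InR, at 192.4, 200.4 and 213.1 kb, have the highest.

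The permissive TAD of tin and bap, 30.04 kb from 21378014 to 21408049, was identical in both maps and held 5 genes, these 2 with Ugt49B2, CG7907 and CheB93a. Its left neighbour, 28.3 kb with mod(mdg4), was identical as well. Over the autosomes 7.56% of BG3 TADs and 6.94% of Kc167 TADs had both ends in the other map within 20 bp. lbl and lbe shared a TAD of 79.9 kb in BG3, with CheB93b and Fancm, and one of 74.0 kb in Kc167, where Fancm stood in a TAD of its own of 5.83 kb. These were wide TADs, above 81.0% of those in BG3 and 82.1% in Kc167. The TAD of C15 measured 33.3 kb in BG3 and was narrower in Kc167, at 32.4 kb. slou lay in one of 58.2 kb in BG3 with CG15498, and in one of 51.1 kb in Kc167 with sp3 and CG15498. Median widths were 43.3 kb in BG3 and 39.3 kb in Kc167.

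In the stringent lists the weak border in CheB93a was gone, and tin, bap, lbl and lbe stood in 1 TAD of 109.9 kb, from 21378014 to 21487912, with 9 gene starts. Both its ends were at the same base in the 2 maps, and 6.53% of stringent TADs in BG3 and 5.2% in Kc167 had both ends in the other map within 20 bp. The TADs of C15 and slou had the same ends at both settings. Of the 15 pairs of NK genes, 2 shared a permissive TAD, tin with bap and lbl with lbe, and 6 shared a stringent TAD, with the same counts in each map. C15 and slou shared a TAD with none of the others at either setting. No called border position lay in the body of any of the 6 genes. For tin this is not resolved, since the fragment of its border holds its 5′ end. The shares for pairs of other genes, and for the bodies of all genes, were not computed. These counts are therefore not read as a trait of the NK genes. By the called positions InR, beyond the cluster, was cut by 1 border in BG3 and by 3 in Kc167. To the right of the shared border stood a TAD of 40.1 kb in BG3 and TADs of 12.7 and 27.6 kb in Kc167. To its left Kc167 had one of 7.99 kb.

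Of the 6 genes, 1 in each map had its 5′ end within 2 kb of a border, and this was tin, at a strong border in both. Among all autosomal protein-coding genes 17.3% were that near to a border in BG3, 19.8% in Kc167 and 11.5% in both maps, and 6.35% in BG3 and 10.2% in Kc167 were near a strong one, so the count of 1 of 6 is close to that background. bap lay 10.9 kb from the border before tin, and C15 12.1 kb from the border at its left, in both maps. lbl lay 26.1 kb from the border in CheB93a in both maps. lbe lay 38.5 kb from a border in BG3 and 35.5 kb in Kc167, farther than 87.6% and 88.1% of all genes. slou lay 22.2 kb from a border in BG3 and 14.2 kb in Kc167. The median distance of all genes was 11.1 kb in BG3 and 9.10 kb in Kc167, and of the 6 genes 17.1 and 13.1 kb.

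**Figure D3:**
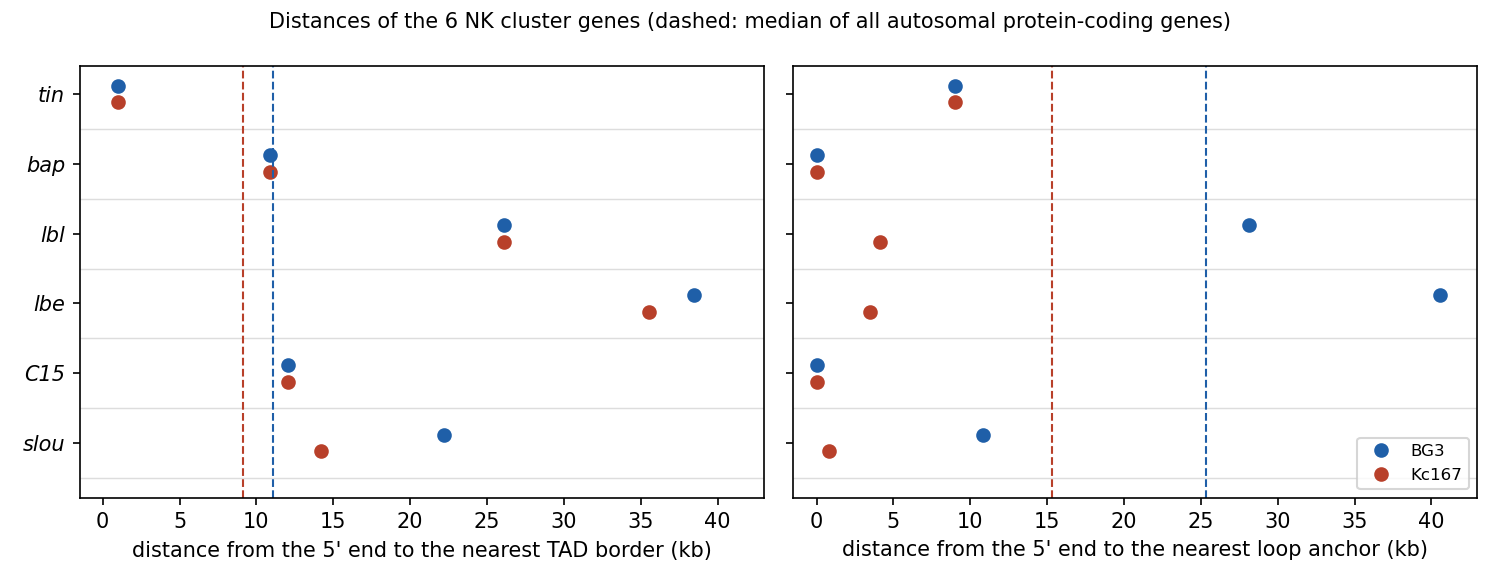
Distance in kb from the 5′ end of each NK gene to the nearest TAD border (left) and the nearest loop anchor (right) in BG3 (blue) and Kc167 (red), with dashed lines at the medians of all autosomal protein-coding genes. tin is the one gene beside a border, at 0.964 kb in both maps, and bap and C15 lie in anchors in both maps. lbl, lbe and slou lie 4.13, 3.46 and 0.819 kb from an anchor in Kc167 and 28.1, 40.5 and 10.8 kb in BG3.

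A loop is a pair of 2 kb pixels whose contacts exceeded those of its surroundings in HiCCUPS. Nearby pixels are merged into 1 call with a centre and a radius, and the anchors given here are those of the listed pixel. The median radius was 1414 bp in BG3 and 2236 bp in Kc167. The span held an anchor of 4 loops in BG3 and 7 in Kc167, with medians of 2 and 3 over the windows of 250 kb, and 17.3% and 9.11% of windows had at least as many. Loops with both pairs of anchors within 10 kb are called shared. 3 loops of the span were shared, which is 3 of 4 in BG3 and 3 of 7 in Kc167, against 38.1% and 26.1% of all autosomal loops. Of these 3, 2 were at the same pixel, as were 14.7% of autosomal loops in BG3 and 10% in Kc167. The third is a pair in InR, and with a limit of 2 kb only 2 were shared. Both anchors lay in 1 TAD for 4 of 4 loops in BG3 and 5 of 7 in Kc167, against 77.4% and 65.5%. An anchor lay within 1 kb of a border for 1 loop in BG3 and 2 in Kc167, against 19.3% and 18.3%. The 5′ ends of bap and C15 lay in anchors in both maps. These 2 of the 6 genes were the only ones with the 5′ end inside an anchor in either map. Thus 2 of 6 genes in BG3 and 3 of 6 in Kc167, with slou, had an anchor within 1 kb, where 6.77% and 8.48% of all genes had one, and 2.37% had one in both maps.

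The bap loop joined 21388001-21390000, which holds the promoter of bap, to 21404001-21406000 in CG7907, whose 5′ end lay 266 bp from the anchor. It spanned 16 kb within the TAD of tin and bap. In BG3 102 contacts were observed (exact Poisson 95% interval 83.2 to 124) where 40.9 were expected from the donut around the pixel, a ratio of 2.49 (2.03 to 3.03) with a donut q-value of 2.45e-08. In Kc167 224 contacts were observed (196 to 255) where 96.6 were expected, a ratio of 2.32 (2.03 to 2.64) with a q-value of 1.69e-23. The ratios overlapped in their intervals, which cover counting error only and take the expected count as exact. The observed count was above that of 92.9% of autosomal loops in BG3 and 98.0% in Kc167. tin, in the same TAD, had its 5′ end 9024 bp from this anchor and lay at no anchor itself.

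The C15 loop joined 21498001-21500000, which holds the start of C15, to 21518001-21520000 beyond its 3′ end, 928 bp before sp3. In BG3 77 contacts were observed (60.8 to 96.2) for 31.7 expected, a ratio of 2.43 (1.92 to 3.04). In Kc167 117 were observed (96.8 to 140) for 58.8 expected, a ratio of 1.99 (1.65 to 2.38), so these intervals overlapped too. The far anchor ended 269 bp before the right border of the C15 TAD in Kc167 and 1187 bp before it in BG3, so that by the limit of 1 kb the loop was at a border in Kc167 and not in BG3. The largest of its 4 q-values was 0.0122 in BG3 and 0.00211 in Kc167, and the BG3 call was lost where all 4 had to be 0.01 or less. The BG3 call merged 8 pixels with a radius of 11885 bp, and the Kc167 call 10 pixels with a radius of 5571 bp. Their centres on the C15 side were at 21493500 and 21494200, left of the listed pixel. The 5′ end of C15, at 21499986, lay close to the right end of that pixel. Its place in the anchor and the distances of 269 and 1187 bp are therefore below what these calls resolve. The median loop had 54 contacts and a ratio of 2.63 in BG3, and 65 contacts and a ratio of 2.45 in Kc167.

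Loops with an anchor within 5 kb of the starts of the ladybird genes, but not within 1 kb, were called in Kc167 alone. One joined 21428001-21430000 within the body of lbl, 4133 bp from its 5′ end, to 21466001-21468000, 38 kb away between lbe and Fancm, with 66 contacts and a ratio of 2.14 (1.65 to 2.72). The other joined 21450001-21452000, 3464 bp before lbe, to 21480001-21482000, 30 kb away, 325 bp from the 5′ end of Fancm and 84 bp from the Kc167-specific border there. It had 54 contacts and a ratio of 2.10 (1.58 to 2.74), and with a largest q-value of 0.0104 it was lost where all 4 had to be 0.01 or less. The call near lbe merged 2 pixels with a radius of 4243 bp, so the distances of 325 and 84 bp are below what it resolves. Both loops lay within the TAD of lbl and lbe, and their anchors overlapped none of the BG3 anchors. In BG3 the nearest anchor was 28.1 kb from the start of lbl and 40.5 kb from that of lbe. The part of the lower depth of the BG3 map in this difference was not tested.

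The loops called at slou differed between the 2 maps, and the part of the lower BG3 depth in this was not tested. In BG3 a loop of 24 kb joined 21544001-21546000, 2.66 kb beyond the 3′ end of slou, to 21568001-21570000 with the start of CG15498, and so enclosed the whole gene, with 66 contacts and a ratio of 2.26 (1.75 to 2.87). This BG3 call merged 6 pixels with a radius of 15495 bp, and its left centre was at 21534000. The distance of 2.66 kb is therefore below what the call resolves. In Kc167 a loop of 42 kb joined 21558001-21560000, 819 bp before the 5′ end of slou, to 21600001-21602000 in InR. It had 52 contacts and a ratio of 3.05 (2.27 to 3.99), and crossed 3 Kc167 borders. The near anchor held 1 DpnII site, and the call merged 3 pixels with a radius of 2000 bp. The distance of 819 bp is therefore below what this call resolves. In InR itself, BG3 had a loop of 30 kb with 69 contacts and a ratio of 3.43 (2.67 to 4.34). Kc167 had one of 16 kb with 72 contacts and a ratio of 1.89 (1.48 to 2.38). Their anchors were offset by 8 and 6 kb, and they are the InR pair counted as shared at the limit of 10 kb.

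The long loop of Kc167 started from 21544001-21546000, the same pixel that anchors the BG3 loop around slou, and ended at 2088001-2090000, 19.5 Mb away in the body of Myo81F, a myosin gene near the centromere. It had 42 contacts (30.3 to 56.8) where the donut gave 0.349, a ratio of 120 (86.7 to 163) that exceeded 99.0% of autosomal loops. The donut value was low beside the horizontal neighbourhood of the pixel, which gave 9.02 and a ratio of 4.66, and the vertical one gave 0. The call merged 10 pixels with a radius of 9220 bp, and its centre on the slou side was at 21542200, left of the listed pixel. Whether it shares an anchor with the BG3 loop is therefore not resolved by these calls. The Myo81F anchor was 22.7% soft-masked repeat and the slou anchor 6.15%, and no alignment was found between them, with or without 10 kb on each side. The nearest annotated protein-coding 5′ end to the far anchor, that of Pzl, was 1.17 Mb away. Within 50 kb of that anchor Kc167 had 4 loops, with other ends at 5174001, 9782001 near MtnA and 27320001 on 3R, and BG3 had 0. The slou site was thus 1 of 4 sites joined to that place in Kc167, and had the highest count of the 4, with 42 contacts against 15, 31 and 13. Loops over 1 Mb made up 2.98% of the autosomal loops in BG3 and 2.22% in Kc167, and 2 and 8 of them lay on 3R. Whether a rearrangement in the Kc167 line, or an error of the assembly, places these 2 sites side by side was not tested, and the lists of loops hold no reads to tell, so that the 42 contacts cannot be read as a contact over 19.5 Mb.

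**Figure D4:**
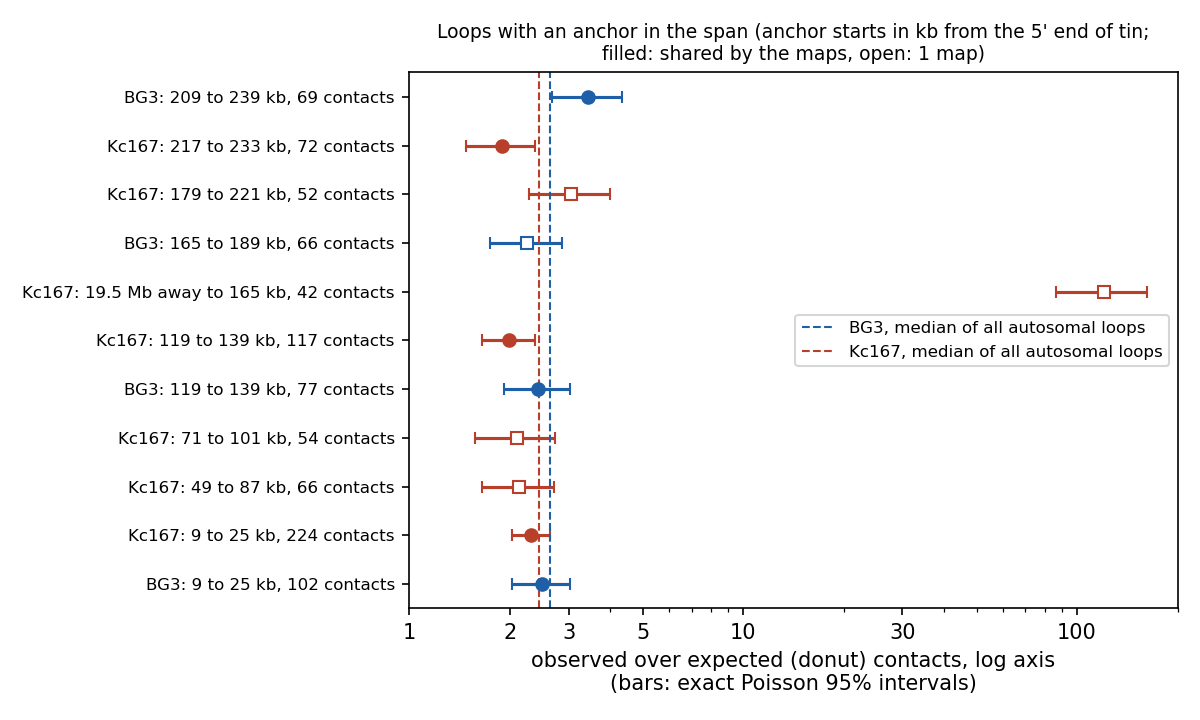
Ratio of observed to donut-expected contacts (log axis) of the 4 BG3 (blue) and 7 Kc167 (red) loops with an anchor in the span, named by the starts of their anchors in kb from the 5′ end of tin and their observed contacts. Bars are exact Poisson 95% intervals, and dashed lines are the medians of all autosomal loops. The ratios of loops within the region lie between 1.89 and 3.43, and that of the long Kc167 loop is 120.

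Other regulators of mesoderm and heart were looked up in the same way, 27 of a list of 29 being on autosomes, with Him and sd on X left out. Within 2 kb of a border were 5 of 27 in BG3 and 2 of 27 in Kc167, and at a loop anchor were 4 and 3, where the background was 17.3% and 19.8% for borders and 6.77% and 8.48% for anchors. how, an RNA-binding protein gene needed in muscle, was the one near a border in both maps, at 723 bp in BG3 and 304 bp in Kc167. Of 20 homeobox genes listed here as other NK-class genes, 17 were on autosomes, and vnd, B-H1 and B-H2 on X were left out. A gene that stands in both lists was counted in each. Of the 17, 1 lay near a border in BG3 and 0 in Kc167, and 1 and 2 lay at an anchor. ems, a head gap gene, was 148 bp from an anchor in both maps.

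As a measure of likeness, 6 yes or no calls were set for each gene, for a border within 2 kb, a strong border within 2 kb and an anchor within 1 kb in each map. bap and C15 had the same calls, at an anchor in both maps and near no border, as had 189 of 11749 genes (1.61%) and, of the lists, ems alone. slou shared its calls, an anchor in Kc167 alone, with sna, a repressor of the early mesoderm, nau, the fly homologue of MyoD, lmd, a factor of fusing myoblasts, and HGTX, the Nkx6 homologue, and with 4.73% of all genes in total. This call of slou held at 1 kb and was lost where the 5′ end had to lie inside an anchor. tin shared its calls with 3.68% of all genes and with none of the lists. lbl and lbe had no call, like 64.8% of genes.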

How the data were processed

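The authors aligned and filtered the Hi-C reads of 2 replicates per line and merged the replicates. BWA 0.7.15-r1140, Juicer 1.7.6 and the dm6 build are named in the submitters' processing notes. Per the methods of the study, TADs came from HiCExplorer at DpnII fragment resolution, under permissive and stringent settings, and loops from HiCCUPS at 2 kb. The deposited TAD lists give positions and a TAD separation score, which is without a fixed range. It belongs to the border at which a TAD starts: TADs of both lists with the same start but another end had equal scores in 482 of 482 cases in BG3 and 580 of 580 in Kc167. The deposited loop lists give, per pixel, the observed contact count, expected counts (estimated counts of 4 neighbourhoods) and the q-values of the authors. The total depth of each map is not in the lists, so the precision of a loop is given by an exact Poisson interval at 95%, which covers counting error only.

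Gene positions came from Ensembl release 115 and sequence from the RefSeq Release 6 genome, both in dm6 coordinates. The chromosome lengths were checked against the last positions of the lists. Borders are TAD ends, merged where they touch. Distances run from the annotated 5′ end, each of the 6 genes having 1. Anchors were aligned with BLAST 2.17.0 (e-value limit 0.001). Scripts ran in Python 3.11.15 with SciPy 1.17.1 for intervals, NumPy 2.4.6 for arrays and Matplotlib 3.10.9 for plots, and the steps that class borders, genes and loops were tested on simulated data.

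Besides the 6 genes, the text names the gene nearest to each border of the span, genes at or nearest to the far anchors of its loops, and listed regulators called in both maps or with the calls of one of the 6. The other genes of the TADs, MtnA and the genes left out on X were named after their values were seen. The genes, the lists and these rules were chosen with earlier results of these data known. The alternatives vary the span, the distances, the TAD list, the q-value limit and the expectation, and 3 were added after the data were seen. With 1 merged map per line no comparison was tested. Enriched contacts, compartments, protein binding and transcripts were not analysed here.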

Additional observations from a re-analysis of the deposited data

How the results depend on the processing

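Of 86 alternative values, 58 stayed within 1.5 times of the main count or at the same value. With the span reduced to the 6 gene bodies and 10 kb on each side, Kc167 had 5 borders, 3 strong and 1 specific. The conserved border at 21579370 and both InR borders specific to Kc167 fall outside that span. 1 border stayed specific to Kc167 beyond 10 kb. With both anchors required in the span, Kc167 had 4 loops. With the mean of both sides' scores, the medians were -0.10 in BG3 and 0.11 in Kc167. Against the largest of the 4 expectations, the median loop ratios of the span were 2.04 in BG3 and 1.89 in Kc167. With all 4 q-values at 0.01 or less, 3 loops stayed in BG3 and 6 in Kc167, without the BG3 loop of C15 and the Kc167 loop near lbe, and 1 of the 6 genes, bap, was at an anchor in BG3. Within 5 kb of an anchor lay 2 of the 6 genes in BG3 and 5 in Kc167. For the mesoderm and heart list, 10 genes in BG3 and 5 in Kc167 lay within 5 kb of a border, and 12 and 5 within 5 kb of an anchor. For the other NK-class list, 5 and 4 lay within 5 kb of an anchor. The share of all genes within 5 kb of a border or an anchor was not computed, so these counts have no background. The conserved borders numbered 3 to 5 over all their alternatives, and tin was the one gene near a border at every distance from 1 to 10 kb.

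No paired analysis was possible because the lists hold merged replicates. For the same reason no replicate was left out. The lists held 771 autosomal loops in BG3 and 1126 in Kc167, and the part of depth in this was not tested.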
